A study of Mus musculus with 16 samples.

Results

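A set of 10 genes of the neutrophil granule program was followed across the cochlear arrays: Prtn3, Elane, Mpo and Ctsg of the primary granules, Ltf, Camp, Ngp and Mmp8 of the secondary granules, and S100a8 and S100a9, which are made late in neutrophil maturation and stored in the cytosol. The members were all probes whose only gene symbol was 1 of these 10, which gave 10 probes, 1 per gene, of the 45101 probes of the array and of 18194 genes named by it. All 10 passed the filter on low signals. Each array held the RNA of 1 whole left cochlea of 1 male DBA/2J mouse, an inbred strain that carries hearing loss alleles of Cdh23 and Fscn2 and loses hearing early. The M+V group (n = 6, aged 12 weeks) had received daily subcutaneous injections over 8 weeks of both MET (L-methionine, a methyl donor, at 500 mg/kg) and VPA (valproic acid, an inhibitor of histone deacetylases, at 300 mg/kg), dissolved in 0.1 M sodium bicarbonate. The control group (n = 5) was of the same age and had been given the vehicle on the same schedule, and the 4-week group (n = 5) was examined at 4 weeks of age without injections. No allele was manipulated, and neither drug was given alone to any of these mice.

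Neutrophils are made in bone marrow in steps, and each step fills its own granules. Promyelocytes transcribe the genes of the primary (azurophil) granules, which hold myeloperoxidase and the serine proteases. Myelocytes and metamyelocytes then turn to the secondary (specific) granules with lactoferrin and cathelicidin, and later cells to gelatinase granules and to the cytosolic calprotectin subunits. Transcripts of the primary granules are therefore characteristic of immature cells, and circulating neutrophils hold little of them. The transcription factors PU.1, C/EBP, Myb and Runx act on granule promoters, and C/EBPε in particular is needed for the secondary granules. The bone around the cochlea holds marrow, and whole cochlea is a bulk sample. In such a sample fewer cells of a type and less RNA per cell cannot be told apart.

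The promoters of 7 members are shown because the primary and the secondary granule genes moved by unequal amounts between the groups, and because letters of the myeloid factors fell unequally on these classes. The sequences are the 250 bases before each RefSeq start site in GRCm38.p6, read 5′ to 3′ on the strand of the gene. All 10 members had an entry among 32851 promoters. Capitals mark the PU.1 core GAGGAA and the C/EBP letters TTGCNNAA, each found on either strand, so that a match on the other strand reads TTCCTC for PU.1.
Prtn3 (chr10:79879417-79879666, plus strand): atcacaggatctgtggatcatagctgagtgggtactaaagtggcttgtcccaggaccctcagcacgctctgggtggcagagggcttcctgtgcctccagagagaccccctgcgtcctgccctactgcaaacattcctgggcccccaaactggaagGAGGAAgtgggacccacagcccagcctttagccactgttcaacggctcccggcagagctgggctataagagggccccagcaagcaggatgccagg
Elane (chr10:79886062-79886311, plus strand): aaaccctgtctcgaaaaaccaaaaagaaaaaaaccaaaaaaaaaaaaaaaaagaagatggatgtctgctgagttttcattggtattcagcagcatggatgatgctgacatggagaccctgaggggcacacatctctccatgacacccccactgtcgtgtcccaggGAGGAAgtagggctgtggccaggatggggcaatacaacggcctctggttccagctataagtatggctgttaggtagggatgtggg
Mpo (chr11:87793534-87793783, plus strand): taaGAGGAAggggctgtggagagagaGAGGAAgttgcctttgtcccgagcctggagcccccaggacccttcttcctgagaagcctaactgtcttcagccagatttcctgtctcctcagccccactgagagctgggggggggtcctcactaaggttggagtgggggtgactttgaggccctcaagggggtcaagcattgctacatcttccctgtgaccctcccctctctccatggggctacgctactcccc
Ctsg (chr14:56102575-56102824, minus strand): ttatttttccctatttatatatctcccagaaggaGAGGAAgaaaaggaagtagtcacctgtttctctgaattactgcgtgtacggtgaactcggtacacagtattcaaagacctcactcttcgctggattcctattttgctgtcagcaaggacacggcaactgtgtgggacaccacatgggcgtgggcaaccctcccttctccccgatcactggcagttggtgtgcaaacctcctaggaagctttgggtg
Ltf (chr9:111019042-111019291, plus strand): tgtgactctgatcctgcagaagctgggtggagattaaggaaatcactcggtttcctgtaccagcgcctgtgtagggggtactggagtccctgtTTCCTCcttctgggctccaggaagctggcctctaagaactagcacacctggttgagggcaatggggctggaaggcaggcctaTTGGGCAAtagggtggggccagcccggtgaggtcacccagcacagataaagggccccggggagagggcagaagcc
Ngp (chr9:110419558-110419807, plus strand): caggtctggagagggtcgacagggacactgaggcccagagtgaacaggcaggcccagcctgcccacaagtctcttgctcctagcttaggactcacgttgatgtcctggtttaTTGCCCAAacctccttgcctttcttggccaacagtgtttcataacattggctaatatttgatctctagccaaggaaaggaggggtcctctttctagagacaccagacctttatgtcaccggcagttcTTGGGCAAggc
Mmp8 (chr9:7558179-7558428, plus strand): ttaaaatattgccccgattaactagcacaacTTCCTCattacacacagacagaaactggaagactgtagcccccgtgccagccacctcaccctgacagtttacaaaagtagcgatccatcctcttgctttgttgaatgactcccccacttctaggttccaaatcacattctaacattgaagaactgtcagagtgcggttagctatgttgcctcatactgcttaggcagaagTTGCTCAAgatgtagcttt
GAGGAA was present in 4 of 4 primary granule promoters and in 3 of 6 others (Ltf, Mmp8 and S100a8), against 23.3% of all promoters of this length. In Prtn3 and Elane, neighbours on chromosome 10, it lay 95 to 90 and 85 to 80 bases before the start. TTGCNNAA was present in 0 of 4 primary granule promoters and in 4 of 6 others (Ltf, Ngp, Mmp8 and S100a9), against 9.56% of all promoters. In Ngp it occurred at 138 to 131 and at 11 to 4 bases before the start, and in Mmp8 at 19 to 12. The Myb letters CAACNG were present in Prtn3, Elane, Ctsg and Ngp (29.3% of all promoters), and the Runx letters TGTGGT in Ctsg and S100a9 (14% of all). No match overlapped one of another motif in these windows, Camp held none of the 4 motifs, and a match is a description of letters only.

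The arrays of 1 group correlated at r of 0.918 to 0.988 over probes. The hybridisation control bioB, a bacterial transcript added in a fixed amount, stood at 8.91 to 9.62 on the log2 scale in 8 arrays and at 5.73 to 6.08 in the other 8. The high level held M+V replicates 1 and 2, control replicate 1 and all 5 arrays of the 4-week group. Values within the high level are given beside the comparisons, and they rest on 2 M+V arrays and 1 control array. Of 11 tested marker genes of the cochlea itself, 0 passed the test in any comparison. For M+V against 4 weeks 1 was higher and 2 were lower at an unadjusted p under 0.05 in limma. Of all probes 11% were higher and 11.2% lower at that cutoff. M+V replicate 1 stood apart in another lineage, with a mean log2 signal over 9 erythroid genes of 4.85, against 10.64 to 11.38 in the other M+V-treated cochleae. M+V replicate 3 was the lowest of the M+V arrays for 8 of 8 granule genes outside S100a8 and S100a9, and 4 weeks replicate 5 was the lowest of its group for 7 of 8. Results are given with and without M+V replicate 3 where that array decided a call.

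The primary granule genes were higher in M+V-treated cochleae than at 4 weeks, by 1.70-fold to 2.44-fold. This comparison holds age, the injections and the drugs, which cannot be told apart within it. The bioB level also differed, being high in 2 of 6 M+V arrays and in all 5 arrays at 4 weeks. Prtn3, which encodes proteinase 3, had log2 signals of 12.56, 13.08 and 13.28 (lowest, median and highest of 6) in M+V-treated cochleae, against 11.74, 11.99, 12.07, 11.71 and 11.17 in the 5 cochleae at 4 weeks. Every M+V array lay above every 4-week array. The difference of 1.29 on the log2 scale (SE 0.17, limma, adjusted p = 0.000497, 95% interval 0.93 to 1.64) was the 14th highest of the 21391 tested probes. Ctsg, the gene of cathepsin G, also separated the groups, with 12.52, 13.05 and 13.51 in M+V-treated cochleae and 12.10, 12.39, 12.33, 11.95 and 11.34 at 4 weeks. Its difference was 1.06 (SE 0.20, limma, adjusted p = 0.00606).

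Elane encodes neutrophil elastase and lies next to Prtn3. It had log2 signals of 9.97, 10.77 and 10.90 in M+V-treated cochleae and 9.41, 9.98, 9.66, 9.41 and 9.24 at 4 weeks. The groups met only where M+V replicate 3 (9.97) lay just under 4 weeks replicate 2 (9.98), and the difference was 1.10 (SE 0.19, limma, adjusted p = 0.00353). Mpo, which encodes the hypochlorite-forming myeloperoxidase, had 13.36, 14.00 and 14.17 in M+V-treated cochleae and 13.15, 13.38, 13.44, 13.18 and 12.59 at 4 weeks. Here too M+V replicate 3 alone overlapped the younger group, and the difference was 0.77 (SE 0.16, limma, adjusted p = 0.0121). In all, 4 of 4 primary granule genes and 0 of the other 6 passed the test as higher, where 2.08% of all tested probes did (445 of 21391). Prtn3 and Ctsg were the 2 members whose groups did not overlap, as was so for 1.99% of all probes. Within the arrays of the high bioB level, with 2 M+V arrays, the differences were 1.55 for Prtn3 (limma, adjusted p = 0.0128), 1.25 for Elane (0.0177), 1.48 for Ctsg (0.0244) and 0.92 for Mpo, which then missed the threshold (0.0553). By the methods' t-test, the test named in the study's methods, with the same adjustment, Prtn3 and Elane passed, and Ctsg (0.0808) and Mpo (0.0974) did not.

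**Figure D1:**
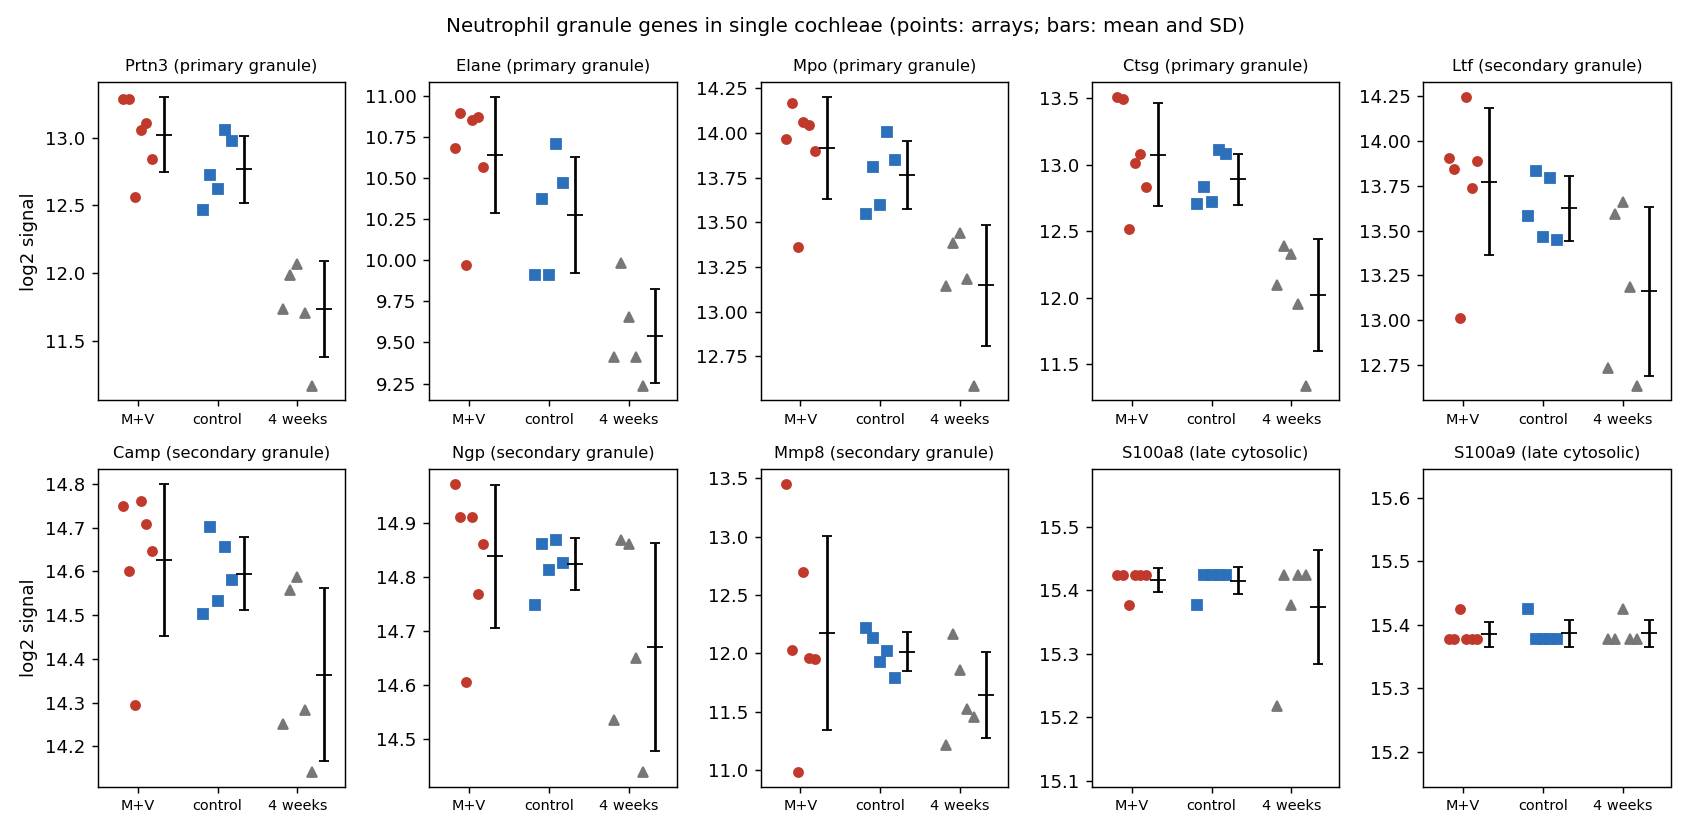
Log2 signal of each granule gene (y axis, its own scale in each panel) in single cochleae of the M+V, control and 4-week groups; points are arrays and bars are the mean and SD. Prtn3 lay at 12.56 or above in the M+V arrays and at 12.07 or below at 4 weeks, while S100a8 and S100a9 took only a few shared values.

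The secondary granule genes were also higher in the M+V-treated cochleae on average, by less, and none passed the test. Ltf, the gene of the iron-binding lactoferrin, had log2 signals of 13.01, 13.86 and 14.25 in M+V-treated cochleae, against 12.73, 13.59, 13.66, 13.18 and 12.63 at 4 weeks. Of the 6 M+V arrays, 5 lay above every 4-week array and replicate 3 lay within their range. The difference was 0.61 (SE 0.21, limma, adjusted p = 0.0988), which met the study's own cutoffs of a 1.5-fold change and an unadjusted p under 0.05, as 1.62% of all probes did in that direction, together with the 4 primary granule genes. Camp, which encodes the cathelicidin precursor, had 14.29, 14.68 and 14.76 in M+V-treated cochleae and 14.25, 14.56, 14.59, 14.28 and 14.14 at 4 weeks. The difference of 0.26 (SE 0.10) had an adjusted p of 0.142 with limma, and again replicate 3 was the only M+V array within the range of the younger group. Without that array Ltf (0.76, adjusted p = 0.0186) and Camp (0.33, adjusted p = 0.0387) passed the test, which made 6 members in place of 4. Replicate 3 was the lowest M+V array for both genes, so leaving it out could only raise these differences. Without 4 weeks replicate 5, the lowest of its group for both, they fell to 0.48 and 0.21. With each array left out in turn the adjusted p from limma reached 0.224 for Ltf and 0.295 for Camp. The share of all probes called without replicate 3 is not given here. Within the high bioB level the differences were 0.71 for Ltf and 0.31 for Camp, and neither passed (limma, adjusted p = 0.177 and 0.255).

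Mmp8, a collagenase of the specific granules, had the widest spread of the members in the M+V group (SD 0.83, n = 6), but not in the control group (SD 0.17, n = 5) or at 4 weeks (SD 0.37, n = 5). Its log2 signals were 10.98, 11.99 and 13.46 in M+V-treated cochleae and 11.21, 12.17, 11.86, 11.53 and 11.46 at 4 weeks. M+V replicate 3 lay below all other arrays and replicate 1 above them. The difference of 0.53 had a 95% interval of -0.12 to 1.18 (limma, adjusted p = 0.322). It was 0.28 without M+V replicate 1, 0.95 with the bioB level as a block (adjusted p = 0.113) and 1.10 within the high level (adjusted p = 0.125). Ngp, which encodes neutrophilic granule protein, a relative of the cathelicidins and cystatins, ranged from 14.60 to 14.97 in M+V-treated cochleae and from 14.44 to 14.87 at 4 weeks. Its difference was 0.17 (95% interval -0.03 to 0.36, adjusted p = 0.303), and 0.27 within the high bioB level with the same adjusted p.

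S100a8 and S100a9 encode the 2 subunits of calprotectin, the most abundant cytosolic protein of neutrophils, and their probes left almost no room for a difference. They were the 2 brightest probes of the array in 15 of 16 arrays. Quantile normalization gives the brightest probe of each array the same value, here 15.42, and the next ones 15.38 and 15.22. S100a8 was at 15.42 in 5 of 6 M+V arrays, in 4 of 5 control arrays and in 3 of 5 arrays at 4 weeks, so these values report a rank. The M+V against 4 weeks differences were 0.04 for S100a8 (95% interval -0.09 to 0.17) and -0.00157 for S100a9 (-0.12 to 0.12). The room between the 4-week mean and the highest value of the table also differed among the other members. It was 0.75 for Ngp and 1.06 for Camp, 2.26 for Ltf, 2.28 for Mpo and 3.40 to 5.89 for Ctsg, Prtn3, Mmp8 and Elane. Mpo and Ltf had nearly the same room, and their differences were 0.77 and 0.61. Whether the upper end of the scale lowered the differences of the brightest genes was not tested.

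**Figure D2:**
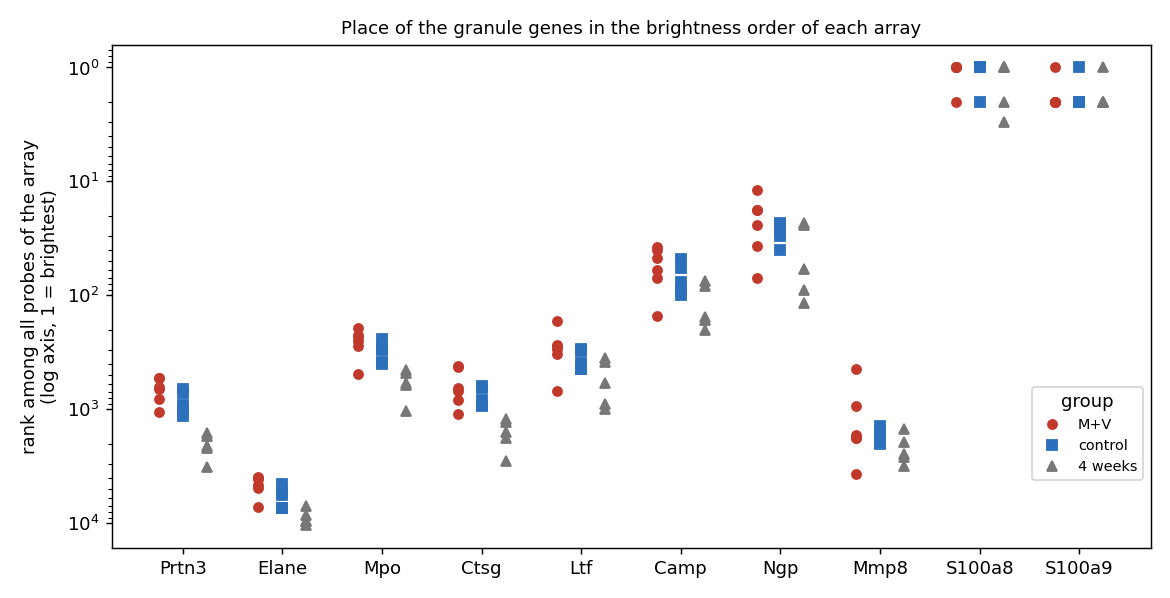
Rank of each granule gene's probe among all probes of its array (y axis, log scale, 1 is the brightest) for the M+V, control and 4-week arrays, to be read within a gene and not between genes. S100a8 and S100a9 held ranks 1 to 3 throughout, while Prtn3 held ranks 531 to 1054 in the M+V arrays and 1606 to 3217 at 4 weeks.

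Control cochleae differed from those at 4 weeks in age and in the vehicle injections, which cannot be told apart here. The bioB level also differed, being high in 1 of 5 control arrays and in all 5 arrays at 4 weeks. Control cochleae were set against the same 5 younger arrays as the M+V-treated cochleae. Prtn3 had log2 signals of 12.46, 12.72, 12.62, 13.06 and 12.97 in control cochleae, all above the 11.17 to 12.07 at 4 weeks. It rose by 1.03 (SE 0.17, limma, adjusted p = 0.00638). Ctsg had 12.71, 12.83, 12.72, 13.11 and 13.08 in control cochleae, against 11.34 to 12.39 at 4 weeks. Its difference of 0.87 (SE 0.21) passed narrowly, with an adjusted p of 0.0461. The count was 2 of 10 members, where 0.369% of all tested probes were called higher (79 of 21391).

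Mpo also lay higher in every control array (13.55, 13.81, 13.60, 14.01 and 13.85) than in any 4-week array, and its difference of 0.62 had an adjusted p of 0.0864. Groups without overlap were thus seen for Prtn3, Ctsg and Mpo, and for 1.96% of all probes. Elane had 9.91, 10.37, 9.91, 10.71 and 10.47 in control cochleae, with 2 arrays inside the range of the younger group, and a difference of 0.74 with an adjusted p of 0.0805. By limma all 4 primary granule genes met a 1.5-fold change and an unadjusted p under 0.05, as 1.03% of all probes did in that direction. The secondary granule genes differed by 0.46 (Ltf), 0.37 (Mmp8), 0.23 (Camp) and 0.15 (Ngp), with adjusted p values of 0.35 to 0.666 from limma. The Ctsg call was lost without 12 of the 16 arrays in turn (adjusted p up to 0.121), and Elane and Mpo passed when M+V replicate 3, which enters through the shared spread, was left out (adjusted p = 0.032 and 0.0364). Control replicate 1 was the only control array at the high bioB level, so that its spread is assumed there to be that of the other arrays. Within that level the differences were 0.73 for Prtn3 and 0.68 for Ctsg, which both lost their call (limma, adjusted p = 0.616 and 0.723), 0.40 for Mpo and 0.37 for Elane. Those of the secondary granule genes were 0.57 for Mmp8, 0.42 for Ltf, 0.14 for Camp and 0.08 for Ngp. With the bioB level as a block Prtn3 passed (1.11, adjusted p = 0.0404), Ctsg did not (1.12, adjusted p = 0.0581), and Mmp8 differed by 0.87 (adjusted p = 0.336). With only the control and 4-week arrays in the fit Elane passed as well (limma, adjusted p = 0.0474), which made 3 members in place of 2. In that fit 651 of all probes were called in either direction, against 79 higher and 216 lower with all 16 arrays. By the methods' t-test the adjusted p was 0.0663 for Prtn3 and 0.146 for Ctsg.

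M+V-treated and control cochleae were of the same age and differed in the drugs. None of the 10 members passed the test in limma, 0 passed by the methods' t-test, and 0 had an unadjusted p under 0.05 in limma. Over all probes 0 of 21391 passed in either direction after adjustment (0%), and 4.67% were higher and 5.13% lower at an unadjusted p under 0.05. The difference was above 0 for 9 of 10 members, against 52.3% of all probes. Elane had the highest difference of the members, 0.37, with a 95% interval of -0.03 to 0.76 (unadjusted p = 0.0684, limma, adjusted p = 0.545). Its 3 brightest M+V arrays exceeded all control arrays, and the rest overlapped. Prtn3 differed by 0.26 (-0.10 to 0.61), Ctsg by 0.19 (-0.23 to 0.60), Mpo by 0.15 (-0.18 to 0.49) and Ltf by 0.15 (-0.30 to 0.59). These intervals leave room for an increase by up to 1.70-fold for Elane and 1.53-fold for Prtn3. Camp and Ngp differed by 0.03 and 0.01, and Mmp8 by 0.16 (-0.49 to 0.81). The values differed between the bioB levels. Within the low level, with 4 arrays in each group, the median over the primary granule genes was 0.04, with Ctsg at -0.08 and Mmp8 at -0.07, and within the high level, with M+V replicates 1 and 2 against control replicate 1, it was 0.81.

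**Figure D3:**
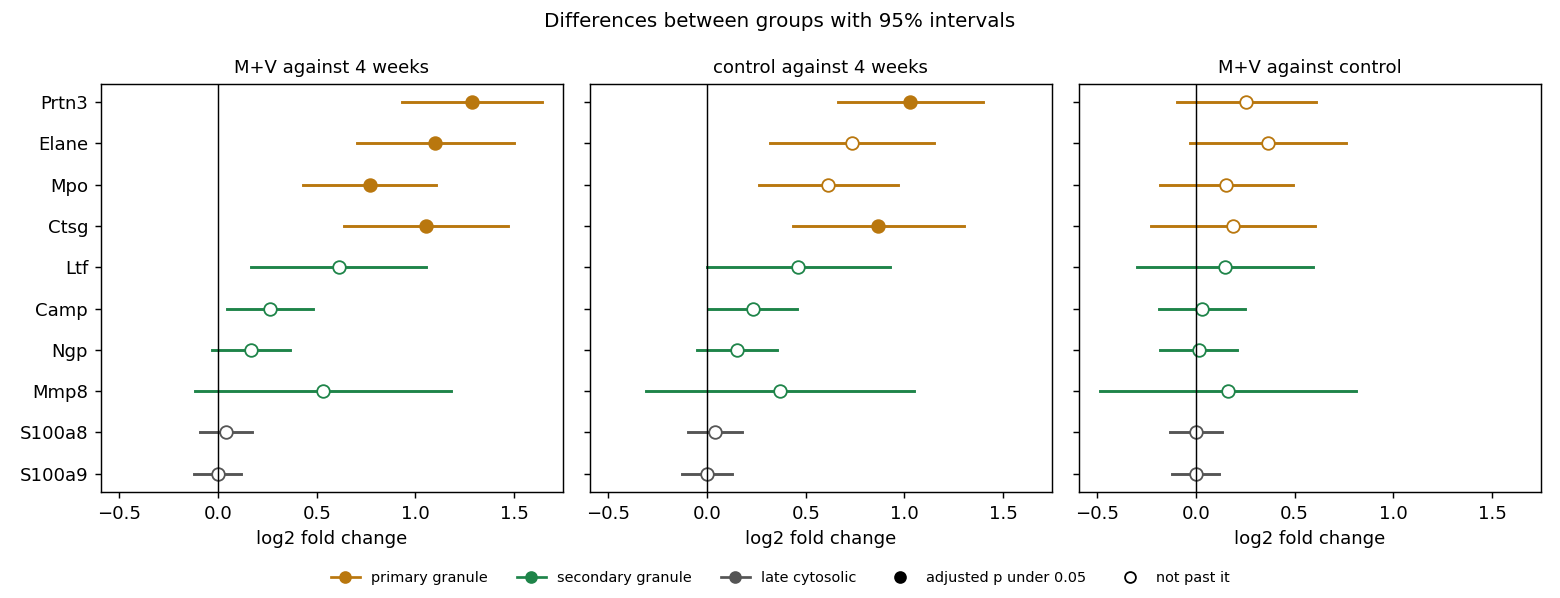
Log2 fold change (x axis) of each granule gene in the 3 comparisons, as points with 95% intervals from limma; filled points had an adjusted p under 0.05. The 4 primary granule genes were filled for M+V against 4 weeks (0.77 to 1.29), Prtn3 and Ctsg for control against 4 weeks, and none for M+V against control.

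The median difference over a class summarizes these values, and the difference between the classes was not tested since the members were chosen with results known. For M+V against 4 weeks the median was 1.08 over the primary granule genes and 0.40 over the secondary granule genes, and 0.21 when S100a8 and S100a9 were added to the secondary granule genes. For control against 4 weeks it was 0.80 and 0.30, and for M+V against control 0.22 and 0.09. Within the high bioB level the primary median was 1.37 for M+V against 4 weeks and 0.54 for control against 4 weeks, and that of the secondary granule and late genes was 0.29 and 0.11. The median over all tested probes was 0.00 for M+V against 4 weeks. In that comparison the further lists described below had medians of 0.58 (azurophil accessory genes), 0.64 (specific and gelatinase granules) and 0.70 (mature neutrophils). These lists are mixed, and the azurophil accessory genes ranged from 0.11 (Lyz2) to 1.15 (Ms4a3). The order of the member classes was thus not seen in those lists. Within an array, the mean log2 signal of the primary granule genes minus that of the secondary granule genes was -1.41 to -0.88 in M+V-treated cochleae, -1.61 to -1.07 in control cochleae and -2.08 to -1.59 at 4 weeks. Every M+V array lay above all 4-week arrays. So did every control array except replicate 1 (-1.61), which lay inside the 4-week range, just under 4 weeks replicate 1 (-1.59). Control replicate 1 was also the only control array at the high bioB level, where all 4-week arrays stood. The M+V arrays at that level, replicates 1 and 2, lay at -1.41 and -0.88. The part of the bioB level in these values was not tested. M+V replicate 3, low in both classes, had a difference of -1.12, inside the range of its group.

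**Figure D4:**
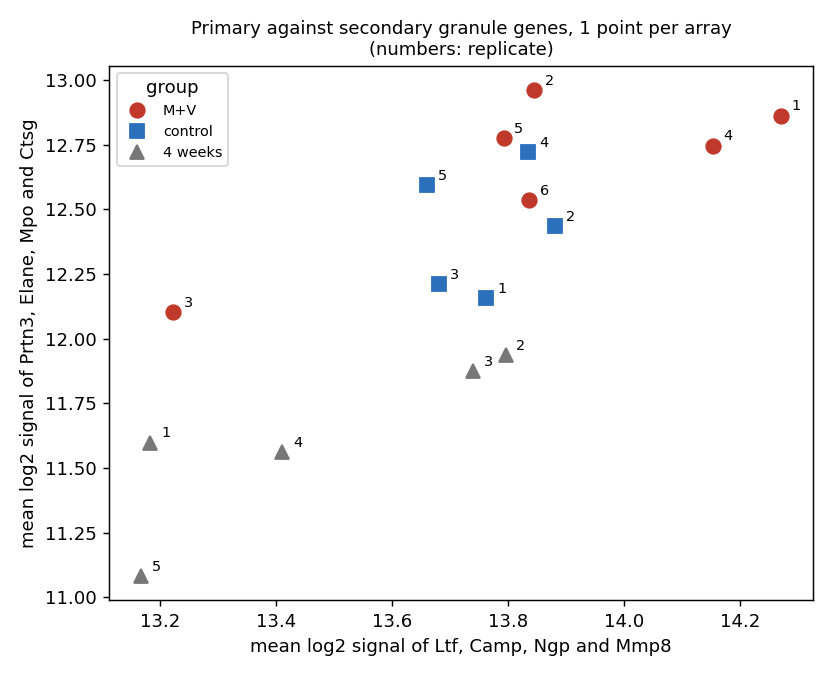
Mean log2 signal of the 4 primary granule genes (y axis) against that of the 4 secondary granule genes (x axis), 1 point per array, with the replicate number beside it. At secondary granule means of 13.74 to 13.88, M+V replicates 2, 5 and 6 had primary means of 12.96, 12.77 and 12.54, control replicates 1, 2 and 4 had 12.16, 12.43 and 12.72, and 4 weeks replicates 2 and 3 had 11.94 and 11.87, so that the M+V and control arrays overlapped.

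Across the 16 arrays the members varied together. Pearson's r had a median of 0.956 over the 6 pairs of primary granule genes (0.917 to 0.978), 0.848 over the 6 pairs of secondary granule genes and 0.806 over the 16 mixed pairs. With the group means removed the medians were 0.885, 0.818 and 0.735. All points share the normalization, and these correlations are a description. Pairs with S100a8 or S100a9, which hold ranks, had a median of -0.13. Among 11447 other genes, those whose pattern was most like the mean of the primary granule genes were Cst7 (r = 0.968), Mapkapk3 (0.964), Ms4a3 (0.961), Hk3 (0.936) and Plac8 (0.934). Cst7 encodes cystatin F, an inhibitor of the cathepsins that activate granule proteases, and Ms4a3 marks granulocyte and monocyte progenitors. Those most like the mean of the secondary granule and late genes were Itgb2 (r = 0.978), Ptpn6 (0.964), Alox5ap (0.960), Pilrb1 (0.959) and Cd52 (0.958). Itgb2 encodes the β2 integrin chain of leukocytes and Alox5ap a protein of leukotriene synthesis.

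Other genes of the neutrophil lineage were read from 4 lists. For M+V against 4 weeks, where 2.08% of all probes were called higher, 2 of 6 tested azurophil accessory genes rose and 0 fell, with a median difference of 0.58. Ms4a3 rose by 1.15 (SE 0.25, limma, adjusted p = 0.0166) and Cst7 by 0.99 (SE 0.22, adjusted p = 0.0156). Serpinb1a, an inhibitor of the granule proteases, differed by 0.72 (adjusted p = 0.0801) and Ctsc, the dipeptidyl peptidase that activates them, by 0.44 (adjusted p = 0.106). In the mixed specific and gelatinase granule list, which also holds Padi4 and Ltb4r1, 7 of 16 tested genes rose and 0 fell. The median was 0.64, and 0 passed by the methods' t-test. The calls in limma were thus not limited to genes of the primary granules. Pglyrp1, which encodes a peptidoglycan recognition protein, rose by 1.05 (SE 0.23, adjusted p = 0.0152), Hp, the gene of haptoglobin, by 1.02 (SE 0.25, adjusted p = 0.026), and Adam8, a membrane metalloprotease, by 0.72 (SE 0.16, adjusted p = 0.0147). Lcn2, which encodes the siderophore-binding lipocalin of the specific granules, rose by 0.64 (SE 0.18, adjusted p = 0.048). Mmp9, the gelatinase itself, differed by 0.64 (SE 0.37, adjusted p = 0.322) and Chil3, a chitinase-like protein, by 0.35 (adjusted p = 0.533).

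Of 12 tested genes of mature neutrophils and their receptors, 0 rose and 0 fell in limma and 0 passed by the methods' t-test, with a median of 0.70. At an unadjusted p under 0.05, 8 of the 12 were higher, where 11% of all probes were. Il1b differed by 0.81 (adjusted p = 0.0604), Ifitm6 by 0.93 (0.0857) and Csf3r, the receptor for the granulocyte growth factor G-CSF, by 0.67 (0.0973). Cxcr2, the chemokine receptor of mature neutrophils, differed by 0.05 (adjusted p = 0.902). Of 10 regulators of granulopoiesis, 1 rose, namely Csf2ra, a receptor chain for GM-CSF, by 0.88 (SE 0.16, limma, adjusted p = 0.00455). Cebpa differed by 0.62 (adjusted p = 0.0516), Spi1, which encodes PU.1, by 0.65 (0.103) and Gfi1, a repressor needed for neutrophil development, by 0.30 (0.304), and Cebpe was not analysed here. Without M+V replicate 3 the counts that rose became 3, 12, 6 and 5 in the azurophil, specific and gelatinase, mature and regulator lists, and without M+V replicate 1 they became 2, 4, 2 and 1. They were 4, 6, 2 and 3 within the high bioB level, where 1039 of all probes were called in either direction. With that level as a block they were 4, 3, 3 and 3 (1427 of all probes). With only the M+V and 4-week arrays in the fit they were 1, 2, 0 and 2 (581 of all probes). The main fit called 445 probes higher and 684 lower. The totals over all probes with single arrays left out are not given here. For control against 4 weeks, 0 genes passed in any of these lists by limma or the methods' t-test. The medians were 0.33, 0.44, 0.52 and 0.19 in the same order. With only the control and 4-week arrays in the fit 2, 3, 1 and 0 rose, where 651 of all probes were called in either direction. At an unadjusted p under 0.05, 2 of 6, 8 of 16, 3 of 12 and 2 of 10 genes were higher in control cochleae, where 6.07% of all probes were. Ms4a3 and Cst7 had differences of 0.92 and 0.89 (adjusted p = 0.112 and 0.0609). For M+V against control 0 passed in each list by either test, with 0, 0, 0 and 1 gene higher at an unadjusted p under 0.05 and medians of 0.16, 0.22, 0.20 and 0.25.

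**Figure D5:**
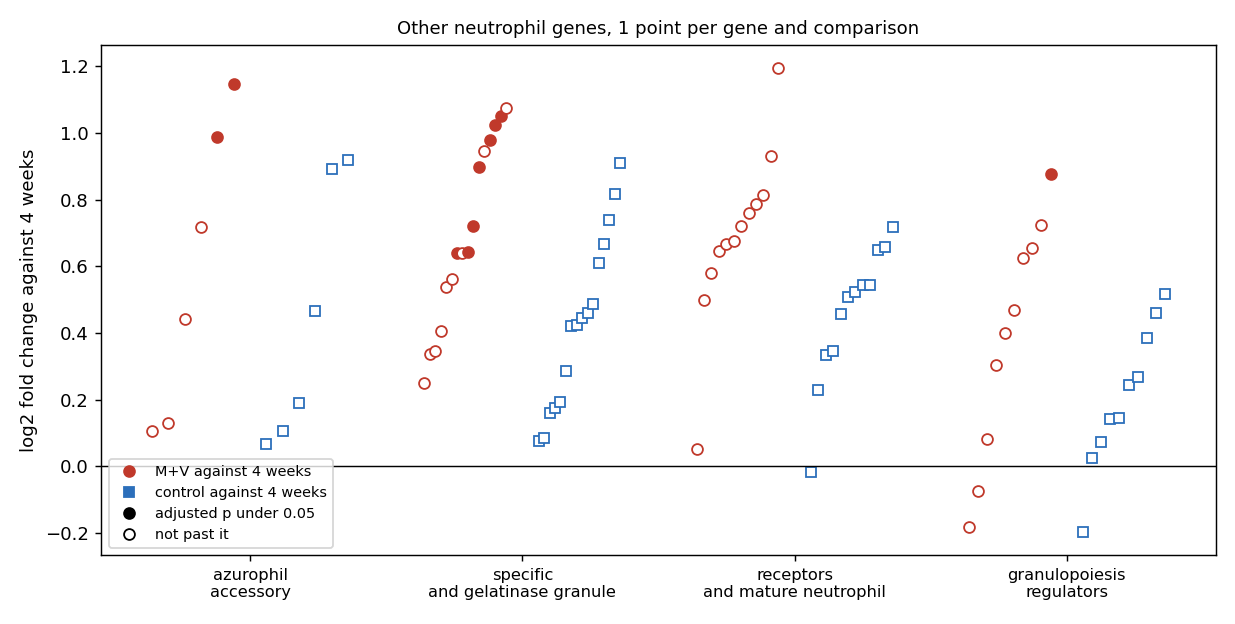
Log2 fold change against 4 weeks (y axis) of the tested genes in 4 lists of other neutrophil genes, 1 point per gene, for the M+V and the control group; filled points had an adjusted p under 0.05. The M+V group had 2, 7, 0 and 1 filled points from left to right and the control group none, with most points of both groups above 0.

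Marker lists of other cells that cochlea with its bone may hold were read beside these results. Osteoblast genes were lower in the older groups. In the M+V group 6 of 7 fell against 4 weeks, where 3.2% of all probes did, with a median of -1.20 and mean log2 signals of 11.04 to 11.73 against 12.44 to 12.52. In the control group 4 of 7 fell, where 1.01% of all probes did, with a median of -1.03. Of 9 erythroid and 7 B cell precursor genes 0 passed the test. For M+V against 4 weeks 0 of 9 and 0 of 7 had a difference above 0, with medians of -1.38 and -0.93, opposite in sign to those of the granule genes, and for control against 4 weeks the medians were 0.04 and -0.38. The mean log2 signal of the erythroid genes was 4.85 to 11.38 in M+V-treated cochleae, 11.06 to 11.60 in control cochleae and 10.91 to 11.59 at 4 weeks, and that of the B cell precursor genes was 6.64 to 10.08, 9.53 to 10.14 and 9.84 to 10.30. Both had their lowest M+V array in replicate 1 (4.85 and 6.64), an array that was the highest M+V array for 4 of 8 granule genes. The other M+V arrays lay at 10.64 to 11.38 for the erythroid and 8.95 to 10.08 for the B cell precursor genes. The medians over arrays were 11.19 and 9.56 in the M+V group, against 11.46 and 10.16 at 4 weeks. The erythroid median difference of -1.38 thus rested largely on replicate 1. At an unadjusted p under 0.05, 0 erythroid and 3 B cell precursor genes were lower in M+V-treated cochleae than at 4 weeks, where 11.2% of all probes were. Of 10 macrophage genes 1 rose in each older group against 4 weeks, with medians of 0.16 in the M+V group and 0.31 in the control group, and of 5 monocyte genes 0 rose and 1 fell in the M+V group. Of 3 eosinophil and 4 mast cell genes 0 passed. For M+V against 4 weeks 0 eosinophil genes and 2 mast cell genes, 1 in each direction, had an unadjusted p under 0.05. Of all probes 11% were higher and 11.2% lower at that cutoff. The part of these cell types in the differences of the granule genes was not tested.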

How the data were processed

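Total RNA of 16 cochleae was hybridised to the Affymetrix mouse genome array. The authors extracted MAS5 signals (GCOS, versions not given in the sources used here) and quantile-normalized them, and the deposited values are these signals on the log2 scale, from -3.31 to 15.42, all arrays having the median 6.90. A floor at a signal of 1 replaced 0.869% of values. Probes below the array median (50th percentile) in some array of each group were not tested, and 21391 probes remained. Of 45101 probes 34958 had 1 gene symbol, 932 several and 9211 none, and 64 control probes were not tested. Group means were estimated from all 16 arrays together in limma 3.58.1 (R 4.3.3). Its two-sided p-values were adjusted by Benjamini and Hochberg's method across those probes and called at 0.05. The script was first tested on simulated data. The labels only number the arrays of each group, and that these are separate mice is taken from the paper's methods. Nothing in the labels separates biological from technical spread, and the number of arrays limits the precision. Members, lists and tests were chosen with earlier results of these data known. All 10 members are reported. Of each further neutrophil list the 3 genes with the largest moderated t in M+V against 4 weeks are named. Gfi1, Csf3r, Cxcr2, Lcn2, Mmp9, Ms4a3, Ctsc and Chil3 are named whatever their values. Cebpe was to be named as well, but no value was obtained for it. Marker lists covered erythroid, B cell precursor, macrophage, monocyte, eosinophil, mast cell, megakaryocyte, cochlea and osteoblast genes; 1 of 5 megakaryocyte genes rose in M+V against 4 weeks. Alternatives were other filters, log2(signal + 32), cyclic loess, only the compared groups, blocks for the replicate number and the bioB level, a Gapdh 3'/5' covariate, the methods' t-test and leaving out each array.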

Additional observations from a re-analysis of the deposited data

Results flagged for a closer look

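Of 30 sets of values (10 genes in 3 groups), 9 held a single array that stood apart from the rest of its group by more than the 95% limit of Dixon's test. Chance exceeds that limit in about 1 of 20 sets of independent values without ties, so this rate cannot be set against the count of 9. M+V replicate 3 was low for Elane (9.97, next array 10.57), Mpo (13.36, next array 13.90) and Camp (14.29, next array 14.60). For S100a8 and S100a9 the flagged arrays were those in which the normalized rank changed: M+V replicate 3 at 15.38 for S100a8 and 15.42 for S100a9, control replicate 1 at the same values (15.38 and 15.42), 4 weeks replicate 1 at 15.22 for S100a8 and 4 weeks replicate 3 at 15.42 for S100a9. In the S100a8 and S100a9 sets the other arrays of a group held 1 shared value or nearly so.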

How the results depend on the processing

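The primary granule gene calls for M+V against 4 weeks held in most settings, with 4 members passing (4 to 6 with each array left out). Without the filter 3 passed (317 of all probes called in either direction), within the high bioB level 3 (1039) and by the methods' t-test 2 (257). Totals over all probes for control against 4 weeks were 95 without the filter, 170 with the bioB block, 189 by the methods' t-test and 651 with only the 2 compared groups. For control against 4 weeks the 2 calls became 1 without the filter, with the filter at the 25th percentile, with the block for the bioB level and with the Gapdh 3'/5' covariate, 0 within the high bioB level (where 1 control array is assumed to vary like the others) and 0 by the methods' t-test, 3 with only the 2 compared groups, and 1 to 4 with each array left out (4 without M+V replicate 3). Residuals of same-numbered arrays correlated at a median of 0.0126, with 6 of 15 pairs over 0.1. Those of other-numbered arrays had a median of -0.019, with 18 of 70 pairs over 0.1. So few pairs cannot exclude a pairing by replicate number. A replicate block left 1 call for control against 4 weeks, and changed no other count of granule gene calls. For M+V against control 0 passed in every setting, and the primary median was 0.81 within the high bioB level. No difference that passed the test turned sign. Signs turned for S100a9 for M+V against 4 weeks with cyclic loess (0.00856) and the bioB block (0.00530), S100a9 for M+V against control with cyclic loess (0.0181), and, for M+V against control within the low bioB level, Ctsg (0.186 over all arrays, -0.0751), Camp (-0.0153), Ngp (-0.0560), Mmp8 (0.162 over all arrays, -0.0695), S100a8 (-0.0118) and S100a9 (0.0118). Arrays left out gave ranges of -0.0126 to 0.0611 for Ngp, -0.0937 to 0.402 for Mmp8, -0.00786 to 0.00943 for S100a8 and -0.00943 to 0.00786 for S100a9 in M+V against control, and -0.00943 to 0.00786 for S100a9 in M+V against 4 weeks. Of the further neutrophil lists, the specific and gelatinase count for M+V against 4 weeks ran from 2 to 12 with each array left out, 3 with the replicate block, 0 without the filter and 0 by the methods' t-test; the settings for these lists were chosen after seeing the data. The causes were not tested.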
